A study of Solanum lycopersicum with 12 samples.

Results

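A set of 4 alpha-expansin genes of tomato was followed across ultrasound and drought treatments of leaves. They were Solyc06g051800.3.1, annotated as expansin 1, Solyc06g049050.3.1, Solyc02g088100.3.1 and Solyc06g076220.3.1. Other alpha-expansin genes of tomato were not examined. These 4 genes were taken by their identifiers from 34075 genes in the count table, and all 4 were among the 22157 genes with enough counts to be tested. Leaves of the dwarf cultivar Micro Tom were collected 48 h after the stimulus, with 3 biological replicates in each of 4 groups, 12 libraries in all. US plants received airborne ultrasound of 30 kHz and 120 W for 5 min from a distance of 6 cm. D plants were irrigated with 10 ml of 20% polyethylene glycol (PEG) 6000, an osmotic agent that lowers the water potential around the roots. US+D plants received the ultrasound and then the same PEG irrigation at once, and C plants received neither. PEG irrigation imitates water shortage within a short time and is not a drying soil, which limits D as a model of drought.

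Expansins are small secreted proteins that loosen the plant cell wall. They act at acidic pH and let cellulose microfibrils slip past the polymers that bind them, without cutting any polysaccharide, so that turgor can stretch the wall and the cell can enlarge. Alpha-expansins are the largest branch of the superfamily, beside beta-expansins and the expansin-like proteins, and are best known from elongating stems, expanding leaves and softening fruit. Tomato expansin 1 is known from ripening fruit, where it takes part in softening. Roles of the other 3 genes in tomato leaves are not annotated in the sources used here.

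Of these genes 3 lie on chromosome 6 and 1 on chromosome 2 of the SL4.0 assembly. Solyc06g051800.3.1 spans positions 33251262 to 33253086 on the minus strand of chromosome 6, and Solyc06g076220.3.1 spans positions 45041980 to 45044010 on the same strand. Solyc06g049050.3.1 occupies positions 30020166 to 30021932 on the plus strand of chromosome 6. Solyc02g088100.3.1 runs over positions 48322181 to 48324053 on the minus strand of chromosome 2. The number of annotated genes overlapping each of them was 0. Alpha-expansins form a multigene family, and how reads matching several members were counted is not given in the sources used here, so reads of close relatives could have been shared between them.

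Libraries are named by group and replicate number, so that C 2 is replicate 2 of C. Assigned reads per library ranged over 36766633 to 42940503 in US, 37905900 to 41748213 in D, 33640280 to 87164190 in US+D and 44837873 to 106829565 in C. C 2, C 3 and US+D 3 were the deepest libraries, and every other library had at most 44837873 reads. Values below are CPM, a gene's reads relative to all assigned reads of its library, scaled by the trimmed mean of M-values (TMM), and differences are log2 fold changes of the group named first over the group named second. A call required an edgeR quasi-likelihood adjusted p under 0.05, with Benjamini-Hochberg adjustment over all tested genes, and a log2 fold change beyond 0.58. In whole leaves, fewer cells of a type that expresses a gene and less RNA per cell cannot be told apart. The leaf identity of the samples was not analysed here by marker genes.

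The 4 genes stood at different levels. Per kilobase of gene span, introns included, Solyc06g049050.3.1 averaged 32.2 CPM over the 12 libraries, Solyc06g076220.3.1 16.6 CPM, Solyc02g088100.3.1 15.3 CPM and expansin 1 1.6 CPM. Solyc06g049050.3.1 was thus above 91.2% of the tested genes on this scale, whereas expansin 1 was above 30.9% of them. They also differed in how much the libraries varied. Expansin 1 ranged over 1.1 to 7.48 CPM, a 6.8-fold range, and Solyc06g049050.3.1 over 3.84 to 273 CPM, a 71.1-fold range. Solyc02g088100.3.1 varied 8.74-fold and Solyc06g076220.3.1 4.14-fold. The biological coefficient of variation, which measures spread within groups beyond counting noise, was 0.878 for Solyc06g049050.3.1 and 0.761 for Solyc02g088100.3.1, higher than for 95.8% and 92.8% of the tested genes. It was 0.431 for Solyc06g076220.3.1 and 0.349 for expansin 1, higher than for 71.6% and 59.7% of the tested genes. The least abundant of the 4 was thus also the least scattered of them, but more scattered than most tested genes.

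**Figure D1:**
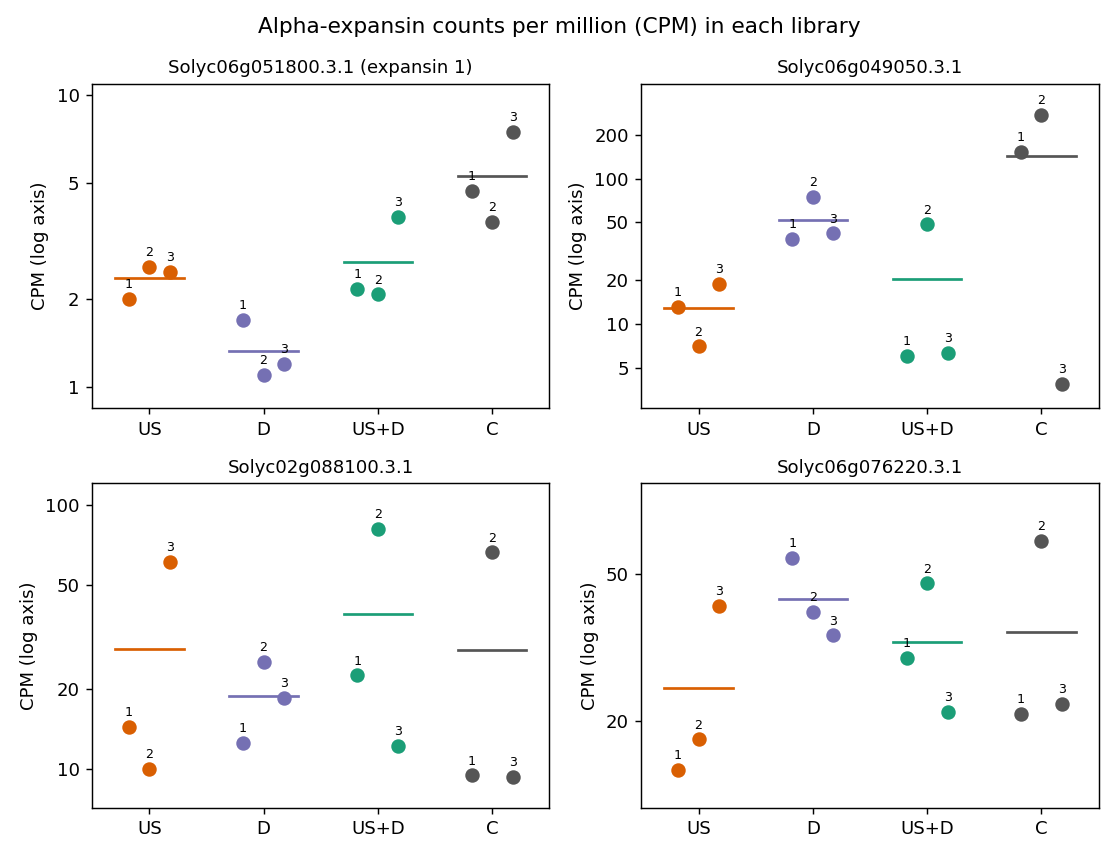
CPM of the 4 alpha-expansin genes in each library on log axes, by group, with replicate numbers beside the points and a line at each group mean (n = 3). Expansin 1 lay between 1.1 and 1.7 CPM in D, below every US, US+D and C library. How many tested genes had D below all other groups was not counted. Solyc06g049050.3.1 ranged over 3.84 to 273 CPM within C alone.

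Expansin 1 had the clearest separation of groups. It had 2.01, 2.59 and 2.49 CPM in the US libraries, 1.7, 1.1 and 1.2 CPM in the D libraries, 2.17, 2.08 and 3.83 CPM in US+D, and 4.72, 3.69 and 7.48 CPM in C. Every D library was below every library of the other groups, and every US library was below every C library. Taken singly, D lay below C without overlap in 10.4% of all tested genes and below US in 11.8%. US+D lay above D in 11.2%, and US below C in 2.65%. The share of genes with all of these separations together was not counted. US+D overlapped both US and C, because US+D 3 exceeded the lowest C library and the other US+D libraries lay among the US values. Group means were 2.36 ± 0.31 CPM in US, 1.34 ± 0.322 CPM in D plants, 2.69 ± 0.988 CPM in US+D and 5.29 ± 1.96 CPM in C (SD, n = 3 each). In the order C, US+D, US, D, the neighbours C and US+D overlapped, as did US+D and US, whereas US and D did not. These CPM rest on 88 to 110 reads per library in US, 38 to 66 in D, 71 to 327 in US+D and 222 to 788 in C.

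The comparison of D with C asked how drought alone changed expression. Expansin 1 was 3.96-fold lower in D, a log2 fold change of -1.98 (SE 0.36, approximate 95% interval -2.78 to -1.19), and its p had rank 21 among all tested genes. The edgeR adjusted p was 0.217, so the gene was not called. Of the 4 genes edgeR called 0 in this comparison, where it called 1 of 22157 genes, or 0.00451%, and an unadjusted p under 0.05 was reached by 11.1% of the genes. With DESeq2, the tool used in the study's methods, the difference was -1.98 with an adjusted p of 8.77e-05 and was a call, in a comparison where 1.53% of the genes tested by that tool were called and 0.702% were called as lower. This DESeq2 call was kept in 12 of the 12 fits that each left out 1 library, with adjusted p of 1.13e-05 to 0.0102. In limma voom the value was -1.83 with an adjusted p of 0.0343, against 1.01% of genes called. Among all tested genes, 10.4% had every D library below every C library.

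Ultrasound without drought was compared through US and C. Expansin 1 was 2.24-fold lower in US, with a log2 fold change of -1.16 (SE 0.35) and an edgeR adjusted p of 0.935. The DESeq2 adjusted p was 0.169, so the tools did not call it here. Its libraries did not overlap, a separation with US lower that 2.65% of the tested genes showed. The combined treatment against C gave a log2 fold change of -0.97 (SE 0.35, edgeR adjusted p = 0.821), and there US+D 3, with 3.83 CPM, exceeded C 2, with 3.69 CPM.

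With drought, the ultrasound estimate for this gene had the opposite sign, but neither estimate was called by edgeR or DESeq2. Expansin 1 was 2.02-fold higher in US+D than in D, with a log2 fold change of 1.01 (SE 0.35, edgeR adjusted p = 0.273), and every US+D library was above every D library. Of all tested genes, 11.2% separated in that direction. The DESeq2 adjusted p was 0.107, and limma voom gave 1.35 with an adjusted p of 0.0173, in a comparison where voom called 8.95% of the genes. Between D and US the log2 fold change was -0.82 (SE 0.35, edgeR adjusted p = 0.364), with all D libraries lower, as 11.8% of the genes had. Between US+D and US it was 0.19 (SE 0.35), with a 95% interval of -0.58 to 0.96, and the libraries overlapped.

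The interaction asked whether the ultrasound difference was the same with and without drought. For expansin 1 the US+D over D difference exceeded the US over C difference by 2.18 on the log2 scale (SE 0.50, 95% interval 1.07 to 3.28). Its edgeR adjusted p was 0.544, and 0 of 22157 genes were called by edgeR for the interaction. DESeq2 gave 2.20 with an adjusted p of 0.0129, a call, beside 0.378% of the genes called and 0.109% called with a positive interaction. That call was kept in 8 of 12 fits that left out 1 library, with adjusted p of 0.00492 to 0.114, and was lost without US 1 (0.0653), D 2 (0.114), D 3 (0.0864) or US+D 3 (0.0827). In 45 of 22157 genes, or 0.203%, all US libraries were below all C libraries and all US+D libraries were above all D libraries. That share counts only the direction seen in expansin 1. Taken singly, these separations were found in 2.65% and 11.2% of the tested genes. The D against C, US against C and interaction differences share the C libraries and are not independent of each other.

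Among the deep libraries, C 3 and US+D 3 were also the highest for expansin 1 in their groups, whereas C 2, the deepest, was the lowest in C. Without C 2, C 3 and US+D 3, an alternative chosen after the data were seen, edgeR gave -1.82 for D against C (adjusted p = 0.722), -1.0 for US against C and 1.66 for the interaction. In that fit the value for US+D against D was 0.66 (adjusted p = 0.526), and the value for US+D against US was -0.16. C then had 1 library, C 1, which was assumed to vary like the other groups. The part of sequencing depth in these differences was not tested.

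**Figure D2:**
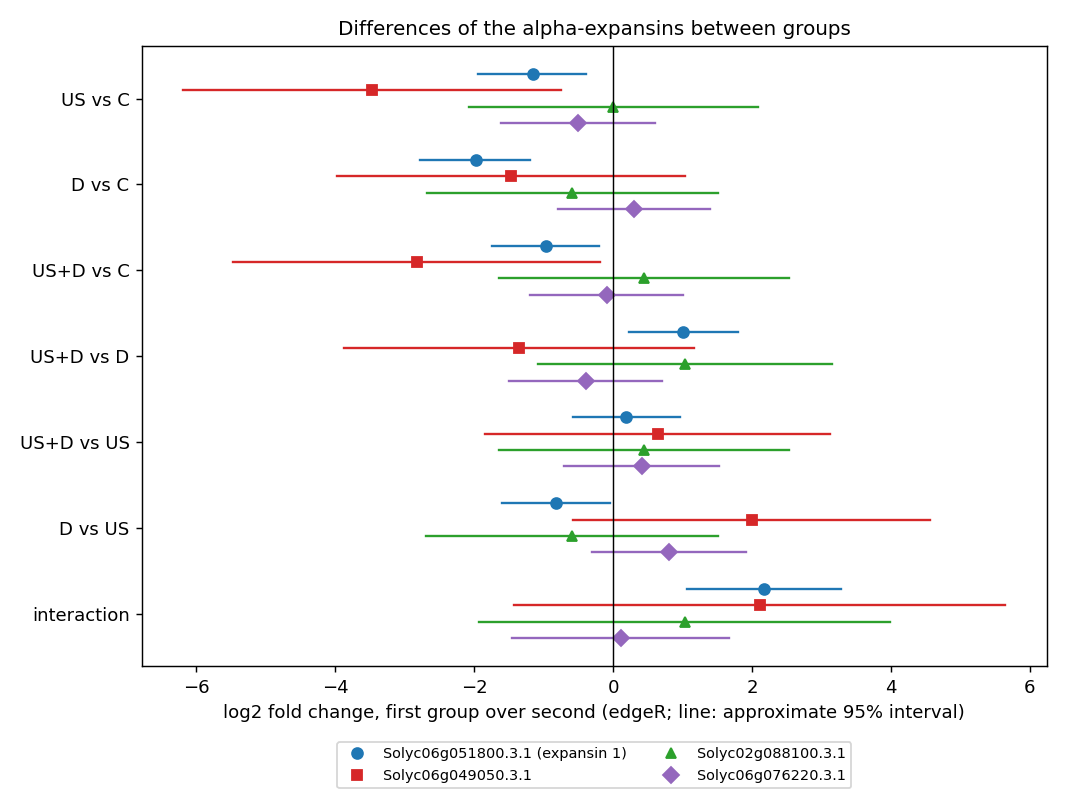
Log2 fold changes of the 4 genes in the 6 group comparisons and the interaction, with edgeR estimates as points and approximate 95% intervals as lines. The intervals of expansin 1 lay below 0 for D against C (-2.78 to -1.19) and above 0 for the interaction (1.07 to 3.28), while those of Solyc02g088100.3.1 and Solyc06g076220.3.1 crossed 0 in every comparison.

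Solyc06g049050.3.1 was the most abundant and most variable of the genes. It had 13, 7 and 18.8 CPM in US, 38.6, 74.3 and 41.9 CPM in the D libraries, 6.04, 48.3 and 6.29 CPM in US+D, and 152, 273 and 3.84 CPM in C. C 1 and C 2 were the highest libraries of all and C 3 was the lowest of all, so C overlapped every other group. US+D 2 stood apart from the other 2 US+D libraries and lay within the range of D. Means were 12.9 ± 5.89 CPM in US, 51.6 ± 19.7 CPM in D plants, 20.2 ± 24.3 CPM in US+D and 143 ± 135 CPM in C (SD, n = 3 each). In the order C, D, US+D, US, each neighbouring pair of groups overlapped.

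Both groups that received ultrasound had low means of Solyc06g049050.3.1 against C, but its edgeR tests did not pass. The log2 fold change was -3.47 for US against C (SE 1.23, adjusted p = 1.0) and -2.83 for US+D against C (SE 1.19, adjusted p = 0.975). For D against C it was -1.47 (SE 1.14, adjusted p = 0.664). DESeq2 gave adjusted p of 0.106 for US against C and 0.299 for US+D against C. Of the 12 DESeq2 fits that each left out 1 library, 1 called each of these, the fit without US+D 2, with -3.48 (adjusted p = 0.0215) and -4.53 (adjusted p = 0.00334), and DESeq2 gave no adjusted p without C 1 or without C 3. Without C 2 the DESeq2 values were -2.61 for US against C (adjusted p = 1.0) and -1.93 for US+D against C (adjusted p = 0.738). In the edgeR fits, leaving out C 2 gave -2.59 for US against C, -1.95 for US+D against C and -0.60 for D against C, and leaving out C 3, the low control, gave -4.04, -3.37 and -2.03.

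The D and US libraries did not overlap for this gene. Every D library was above every US library, as 11.4% of the tested genes were, with a log2 fold change of 2.0 (SE 1.16) and an edgeR adjusted p of 0.51. The DESeq2 adjusted p of this comparison was 0.319. For US+D against D the edgeR value was -1.36 (SE 1.14, adjusted p = 0.693), and DESeq2 gave -1.34 with an adjusted p of 0.608. Limma voom gave -2.72 with an adjusted p of 0.0206, in a comparison where voom called 8.95% of the genes. Leaving out US+D 2 in the edgeR fit gave -3.07, and leaving out US+D 1 gave -0.91. The US+D against US value was 0.64 (SE 1.13), with a 95% interval of -1.85 to 3.13, and it was -1.05 without US+D 2. An interaction of 2.11 (SE 1.60) had an edgeR adjusted p of 0.808.

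Solyc02g088100.3.1 varied more within groups than between them. It had 14.4, 9.99 and 60.8 CPM in US, 12.5, 25.5 and 18.6 CPM in the D libraries, 22.6, 81.5 and 12.2 CPM in US+D, and 9.42, 66.2 and 9.32 CPM in C. A single library was high in each of 3 groups, US 3, US+D 2 and C 2, and D held no library of that height. Means were 28.4 ± 28.2 CPM in US, 18.9 ± 6.48 CPM in D plants, 38.7 ± 37.4 CPM in US+D and 28.3 ± 32.8 CPM in C (SD, n = 3 each), and all pairs of groups overlapped. The log2 fold changes were 0.00 for US against C (SE 0.94), -0.59 for D against C (SE 0.95) and 0.45 for US+D against C (SE 0.95). The 95% intervals, -2.08 to 2.09, -2.68 to 1.51 and -1.64 to 2.54, allow differences of several-fold in either direction. Without C 2 the D against C value was 1.01 in edgeR, and the sign turned.

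Solyc06g076220.3.1 had the narrowest range of the 4 genes over the libraries. It had 14.8, 17.9 and 41 CPM in US, 55.1, 39.4 and 34.1 CPM in the D libraries, 29.7, 47.1 and 21.2 CPM in US+D, and 21, 61.2 and 22.3 CPM in C. The 3 D libraries lay within the range of the C libraries, and the highest library of the other groups was again US 3, US+D 2 and C 2. Means were 24.6 ± 14.3 CPM in US, 42.9 ± 10.9 CPM in D plants, 32.7 ± 13.2 CPM in US+D and 34.8 ± 22.9 CPM in C (SD, n = 3 each). The log2 fold changes against C were -0.50 in US (SE 0.50), 0.30 in D (SE 0.50) and -0.09 in US+D (SE 0.50), with 95% intervals of -1.61 to 0.60, -0.80 to 1.40 and -1.20 to 1.01. Without C 2, the highest control, the edgeR values were 0.18 for US, 0.99 for D and 0.59 for US+D, and without C 1 the value for D was 0.04. Its D against US value of 0.80 (SE 0.50) had an edgeR adjusted p of 0.547.

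Taking the 4 genes by comparison, edgeR called 0 of 4 in each of the 6 group comparisons and in the interaction. All tested genes were called at 0% for US against C, US+D against US and D against US, at 0.00451% for US+D against C and at 0.122% for US+D against D. At an unadjusted p under 0.05 the counts were 2 of 4 for US against C, 1 for D against C, 2 for US+D against C, 1 for US+D against D, 0 for US+D against US and 1 for D against US. The corresponding shares of all tested genes were 3.84%, 11.1%, 4.88%, 12.6%, 3.37% and 13%. For the interaction the count was 1 of 4, beside 6.42% of all tested genes. DESeq2 called 1 of 4 for D against C and 1 for the interaction, expansin 1 in both, and 0 in the other 5. In those 5 it called 0.291% of its tested genes for US against C, 0.542% for US+D against C, 2.7% for US+D against D, 0.04% for US+D against US and 2.49% for D against US. The median log2 fold change of the 4 genes was -0.83 for US against C, -1.03 for D against C and -0.53 for US+D against C, beside -0.02, -0.05 and -0.03 over all tested genes. It was 0.31 for US+D against D, beside 0.03 over all tested genes. The 3 comparisons with C share the C libraries, and in each of them the 2 lowest log2 fold changes were those of Solyc06g049050.3.1 and expansin 1.

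The makeup of the summed signal of these 4 genes, which is not that of the whole family, also shifted among libraries. The 4 genes together had 44.2, 37.5 and 123 CPM in US, 108, 140 and 95.9 CPM in the D libraries, 60.5, 179 and 43.5 CPM in US+D, and 187, 404 and 42.9 CPM in C. Solyc06g049050.3.1 supplied 81.2% and 67.6% of it in C 1 and C 2 but 8.96% in C 3. It supplied 29.3%, 18.7% and 15.3% in US, 35.8%, 53% and 43.7% in D, and 9.98%, 27% and 14.5% in US+D. In every US and US+D library, in D 1 and in C 3, Solyc06g076220.3.1 or Solyc02g088100.3.1 was the leading gene. Expansin 1 supplied between 0.784% in D 2 and 17.4% in C 3.

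Across the 12 libraries, Solyc02g088100.3.1 and Solyc06g076220.3.1 had the highest correlation of the 6 pairs of genes. Pearson's r of log2 CPM was 0.71 and Spearman's rho 0.69, with permutation p of 0.0115 and 0.0159. After Benjamini-Hochberg adjustment over the 6 pairs of genes these p were 0.0689 and 0.0955, above the threshold. Over all other tested genes, the 99th percentile of r was 0.85 for Solyc02g088100.3.1 and 0.79 for Solyc06g076220.3.1, both above 0.71. Without US+D 2 and C 2, the libraries farthest from the median of Solyc02g088100.3.1, r of this pair was 0.54. Relative to the mean of their own group, r was 0.88, and US 3, US+D 2 and C 2 were high for both genes. For Solyc06g049050.3.1 and Solyc06g076220.3.1, r was 0.58 (permutation p = 0.0487, adjusted 0.146), rho was 0.48 (permutation p = 0.117, adjusted 0.194), and r was 0.40 without C 2 and C 3. The r of Solyc06g049050.3.1 with Solyc02g088100.3.1 was 0.43 (permutation p = 0.16, adjusted 0.32), its rho was 0.47 (permutation p = 0.129, adjusted 0.194), and r was 0.12 without C 2 and C 3.

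Expansin 1 had a negative r with each of the other genes over the 12 libraries. Its r was -0.22 with Solyc06g049050.3.1, -0.26 with Solyc02g088100.3.1 and -0.33 with Solyc06g076220.3.1, with permutation p of 0.498, 0.407 and 0.297 and adjusted values of 0.498, 0.489 and 0.446. The rho values were -0.27, -0.49 and -0.29, with permutation p of 0.404, 0.111 and 0.354 and adjusted values of 0.404, 0.194 and 0.404. Without C 3 and D 2 the r values were 0.23, -0.07 and -0.20. Relative to group means the r was -0.74 with Solyc06g049050.3.1, -0.62 with Solyc02g088100.3.1 and -0.36 with Solyc06g076220.3.1, and these were not tested. C 3 was the library highest for expansin 1 in C and lowest for Solyc06g049050.3.1.

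**Figure D3:**
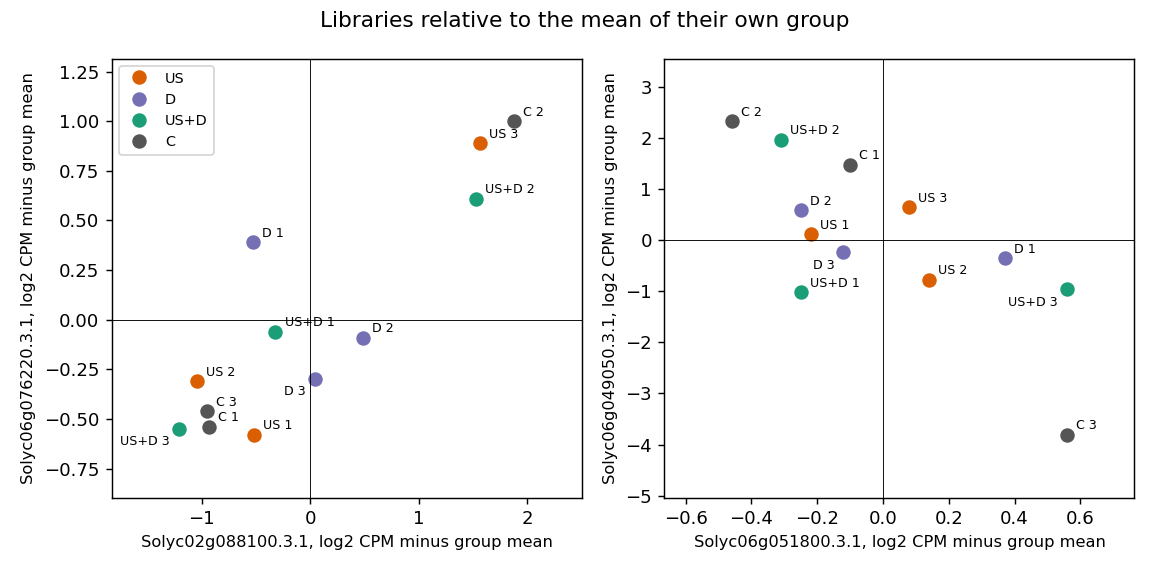
Each point is a library, placed by its log2 CPM minus the mean of its own group, for Solyc02g088100.3.1 and Solyc06g076220.3.1 on the left and for expansin 1 and Solyc06g049050.3.1 on the right. US 3, US+D 2 and C 2 sit at the upper right of the left panel (r = 0.88 over the 12 libraries), and C 3 sits at the lower right of the right panel (r = -0.74).

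Genes with the most similar course over the 12 libraries were listed for each alpha-expansin by Pearson's r of log2 CPM among 22156 other tested genes. For Solyc06g049050.3.1 these were Solyc06g049040.4.1 (r = 0.95), Solyc08g082250.3.1 (r = 0.95) and Solyc04g081870.4.1 (r = 0.94). Solyc06g049040.4.1 is also its neighbour on chromosome 6, at positions 30004117 to 30008058 on the same strand, 12107 bases away, and ranged over 9.15 to 59.3 CPM. The neighbour on the other side, Solyc06g049060.3.1, 1679 bases away, had r = -0.02. Solyc02g088100.3.1 was most like Solyc06g050350.3.1 (r = 0.97), Solyc06g074000.1.1 (r = 0.97) and Solyc06g051830.3.1 (r = 0.95), none of them on its own chromosome. Solyc06g076220.3.1 was most like Solyc08g005520.3.1 (r = 0.96), Solyc11g042920.3.1 (r = 0.94) and Solyc10g080760.2.1 (r = 0.94).

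Few genes followed expansin 1 as closely. The nearest were Solyc12g044695.1.1 (r = 0.91), which did not exceed 0.465 CPM, Solyc10g085900.3.1 (r = 0.90), annotated as the chloroplast protein SLOW GREEN 1, and Solyc10g009420.3.1 (r = 0.88), annotated as an E3 ubiquitin-protein ligase. In all, 1 gene had r over 0.9 with expansin 1, against 16 for Solyc06g049050.3.1, 41 for Solyc02g088100.3.1 and 16 for Solyc06g076220.3.1. The lowest library of expansin 1 held 38 reads, and those of the other genes held 223 to 648. The part of counting noise in these numbers was not tested. Libraries of the same group share their treatment, and such likeness is a description of these 12 libraries.

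**Figure D4:**
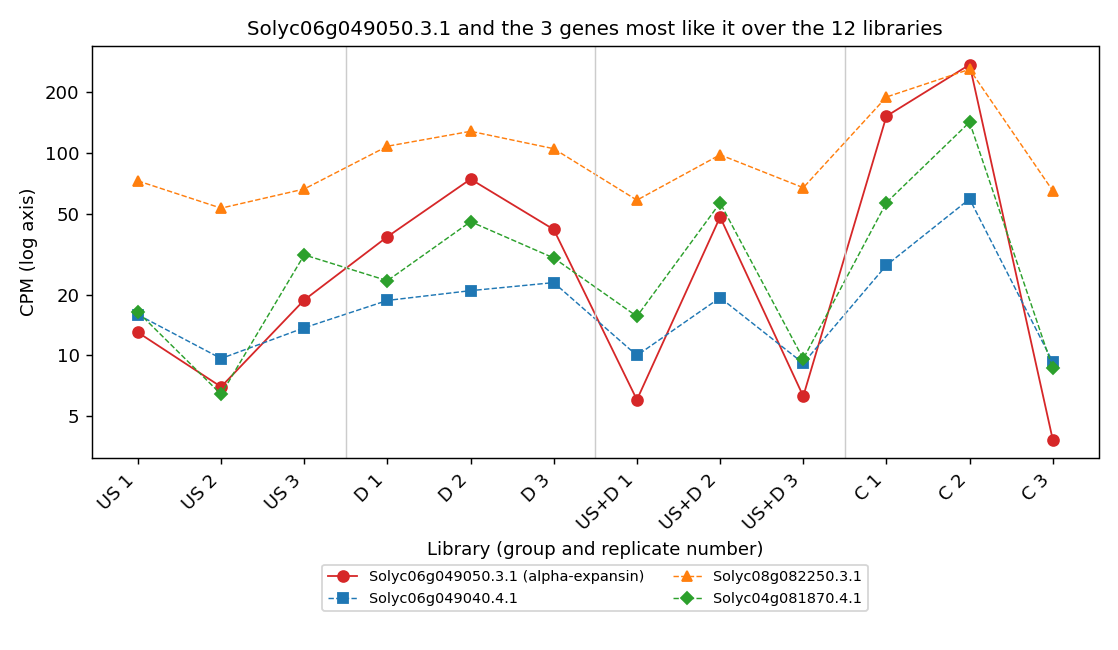
CPM on a log axis of Solyc06g049050.3.1 and the 3 genes most like it, in the 12 libraries, with thin vertical lines between groups and connecting lines only to guide the eye. All 4 genes peaked in C 2 and were low in C 3, where Solyc06g049050.3.1 had 3.84 CPM.

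Of the other branches of the superfamily, 2 annotated genes could be compared. Their annotations came from the study's lists of results on these libraries, so their differences are not independent evidence. Solyc01g112000.4.1, annotated as expansin-like protein precursor 1, lies at positions 90487762 to 90489626 on the plus strand of chromosome 1. It had 86.7, 153 and 217 CPM in US, 45.4, 42 and 62.1 CPM in the D libraries, 194, 135 and 77.6 CPM in US+D, and 14.6, 21.5 and 31 CPM in C. Every library of the 3 treated groups was above every C library, unlike any of the 4 alpha-expansins. The share of all tested genes with this separation was not counted. The log2 fold change was 2.77 for US against C (SE 0.43, edgeR adjusted p = 0.218, DESeq2 adjusted p = 6.11e-07) and 2.60 for US+D against C (SE 0.43, edgeR adjusted p = 0.161, DESeq2 adjusted p = 3.39e-06). For D against C it was 1.16 (SE 0.41, edgeR adjusted p = 0.376, DESeq2 adjusted p = 0.159). In the same order of comparisons, which share the C libraries, the log2 fold changes of expansin 1 were -1.16, -0.97 and -1.98.

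Solyc01g090810.4.1, annotated as a beta-expansin precursor, lies at positions 76764517 to 76767376 on the plus strand of chromosome 1 and was near the limit of detection. It had 14, 10 and 3 reads in US, 2, 0 and 2 reads in D, 12, 2 and 2 reads in US+D, and 6, 179 and 129 reads in C. All D libraries were under a floor of 3 reads, and no fold is given for that reason. C 2 and C 3 held most of its reads, and C 1 had 0.128 CPM, less than the 0.325 CPM of US+D 1.

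**Figure D5:**
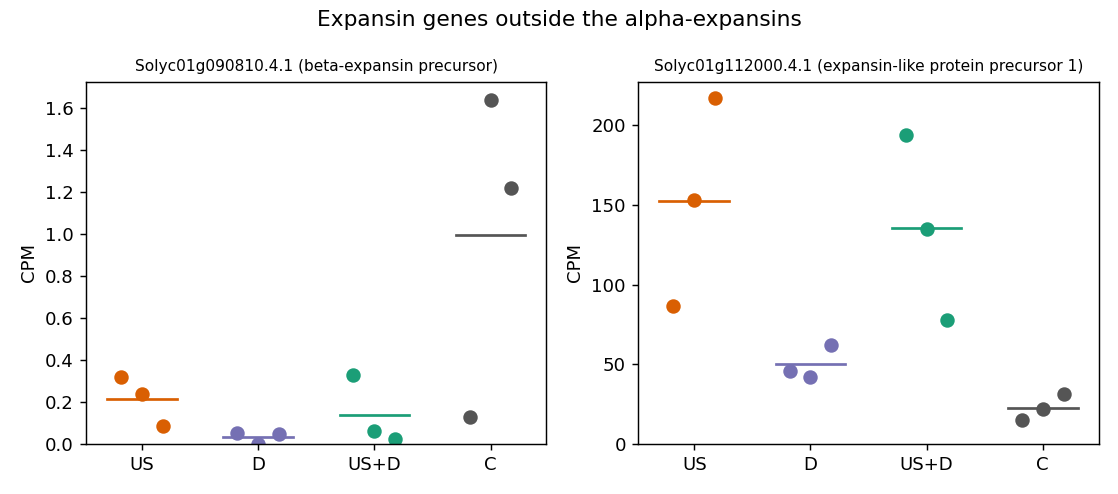
CPM of the beta-expansin gene and the expansin-like gene in each library, on linear axes from 0, with a line at each group mean (n = 3). The expansin-like gene had at least 42 CPM in every treated library and at most 31 CPM in C, and the beta-expansin gene stayed at or below 1.64 CPM everywhere.

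Other enzymes and proteins that remodel the wall gave a background for the alpha-expansins. They comprised 18 annotated genes: 6 xyloglucan endotransglucosylases, which cut and rejoin the xyloglucan that tethers cellulose, 3 endoglucanases, 2 cellulose synthases, 5 pectin-modifying enzymes and 2 extensins, structural glycoproteins of the wall. The annotations were at hand because the study listed these genes from its results on these libraries. Neither their directions nor the counts below are therefore independent evidence, and counts above the shares of all genes were favoured in advance. edgeR called 0 of 18 in each comparison. At an unadjusted edgeR p under 0.05, 3 were higher and 5 lower for D against C, 5 higher and 2 lower for US against C, 10 higher and 4 lower for US+D against D, and 5 higher and 10 lower for D against US. The shares of all tested genes at that p, in either direction, were 11.1%, 3.84%, 12.6% and 13%. Their median log2 fold change was -0.73 for D against C and 1.5 for US+D against D, beside -1.03 and 0.31 for the 4 alpha-expansins. DESeq2 gave an adjusted p under 0.05 for 5 of the 18 in D against C, 8 in US+D against D and 11 in D against US, comparisons in which it called 1.53%, 2.7% and 2.49% of its tested genes.

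Among these genes for D against C, the xyloglucan endotransglucosylase Solyc07g006870.4.1 had 29.3, 27.1 and 23.5 CPM in D, against 17.3, 14.6 and 6.5 CPM in C, a log2 fold change of 1.06 (SE 0.34, edgeR adjusted p = 0.33). A second gene of that family, Solyc09g008320.4.1, had 36.1, 37.9 and 37.9 CPM in D, against 52.7, 79.5 and 106 CPM in C, a log2 fold change of -1.09 (SE 0.45, edgeR adjusted p = 0.41). Members of this family therefore lay on opposite sides of C in D. The pectin acetylesterase Solyc08g005800.4.1, which removes acetyl groups from pectin, had 72.6, 78.3 and 80.1 CPM in D, against 129, 161 and 140 CPM in C, a log2 fold change of -0.89 (SE 0.23, edgeR adjusted p = 0.263, DESeq2 adjusted p = 0.0341). The extensin Solyc05g008100.1.1 had 37.8, 42 and 48.6 CPM in D, against 24.1, 26.8 and 31.3 CPM in C, a log2 fold change of 0.64 (SE 0.14, edgeR adjusted p = 0.236, DESeq2 adjusted p = 0.00394). In each of these 4 genes the D and C libraries did not overlap, as for expansin 1 and for 19.5% of all tested genes. Wall genes were named by the smallest unadjusted p for D against C in each list. The lists also came from these libraries, so such separation was favoured by the choice and is not independent evidence.

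The other wall genes named for D against C were mostly at low levels. The endoglucanase Solyc04g064900.1.1 had 0.103, 0.174 and 0.145 CPM in D, against 0.787, 0.458 and 0.408 CPM in C, a log2 fold change of -1.95 (SE 0.55, edgeR adjusted p = 0.286). A second endoglucanase, Solyc11g008820.2.1, had 0.0516, 0 and 0.193 CPM in D, against 0.51, 0.458 and 2.17 CPM in C. The gene Solyc12g150132.1.1, annotated as extensin-2-like, had 0.103, 0.0289 and 0.0241 CPM in D, against 0.404, 0.659 and 2.46 CPM in C. These 3 genes had every D library below every C library, like expansin 1 and 10.4% of all tested genes. They were named by the same rule, which favoured such separation. The pectate lyase Solyc06g036555.1.1, a pectin-cutting enzyme, was on the other side, with 0.465, 1.27 and 1.01 CPM in D, against 0, 0.0274 and 0 CPM in C. For the pectate lyase, the extensin-2-like gene and the second endoglucanase no fold is given, because a group held libraries near or at 0 reads. Of the cellulose synthases, which make the cellulose of the wall, Solyc03g097050.3.1 had 2.63, 3.01 and 3.69 CPM in D, against 2.55, 8.74 and 9.09 CPM in C (log2 fold change -1.13, SE 0.95, edgeR adjusted p = 0.69). The other, Solyc04g071650.4.1, had 141, 148 and 108 CPM in D, against 108, 143 and 128 CPM in C (log2 fold change 0.07, SE 0.27, edgeR adjusted p = 0.95), and in both cellulose synthases D and C overlapped.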

How the data were processed

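RNA from Micro Tom leaves was sequenced in 12 libraries, 3 per group. As described in the study's methods, the authors cleaned the reads (fastp), mapped them (HISAT2, SL4.0 genome) and deposited read counts per gene (featureCounts). The strand setting and the handling of reads with several matches are not given in the sources used here. Groups and replicate numbers came from the sample titles.

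The deposited counts were filtered with filterByExpr, which kept 22157 of 34075 genes (6463 genes had no read in any library), and were scaled by TMM and fitted over all 12 libraries with edgeR 4.0.16 (glmQLFit, glmQLFTest) in R 4.3.3. Thresholds were an adjusted p of 0.05 and a log2 fold change of 0.58. DESeq2 1.42.0, voom with sample weights in limma 3.58.1, scaling by RLE, other filters, a robust fit, a replicate block, fits of only the groups compared and leaving out each library were alternatives. Levels were compared per kilobase of gene span as deposited. Log2 CPM used a prior count of 2, and correlations used 100000 permutations. The fitting code was tested on simulated data. An exact two-sided permutation test of 3 against 3 libraries has 0.1 as its smallest p, and none was run on a gene alone.

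Named were the 4 alpha-expansins, for each the 3 tested genes with the highest r, the other expansin genes, and in each wall list the 2 genes with the smallest unadjusted p for D against C. The families were to be found by product text in a reference annotation. That text and gene sequences were not used here, and the annotations in the study's supplementary tables were used in place of them, a choice made after the data were seen. The members and lists were chosen with earlier results of these data known. Coordinates are those of the deposited table.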

Additional observations from a re-analysis of the deposited data

Results flagged for a closer look

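In expansin 1, Solyc06g051800.3.1, every US library was below every C library, and every US+D library was above every D library. This pattern was found in 0.203% of the tested genes, counting only this direction. The separations taken singly were found in 2.65% and 11.2% of them. The interaction was 2.18 on the log2 scale (SE 0.50), and it did not pass in edgeR (adjusted p = 0.544) but passed in DESeq2 (adjusted p = 0.0129). Voom gave an adjusted p of 0.144, and the DESeq2 call was kept in 8 of 12 fits that each left out 1 library and lost without US 1, D 2, D 3 or US+D 3. The 3 US libraries averaged 2.36 ± 0.31 CPM, against 5.29 ± 1.96 CPM in C, and the US+D libraries averaged 2.69 ± 0.988 CPM, against 1.34 ± 0.322 CPM in D (SD, n = 3 each). Without the 3 deepest libraries the interaction was 1.66, with an edgeR adjusted p of 0.977.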

How the results depend on the processing

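The edgeR count of called alpha-expansins was 0 in every comparison under each other scaling, filter, robust fit, left-out library and choice of groups. DESeq2 called 1 for D against C and 1 for the interaction, voom called 1 for D against C and 2 for US+D against D, and over the edgeR and DESeq2 fits leaving out 1 library the counts ranged from 0 to 1 for US against C, D against C, US+D against C and the interaction. Whether the replicate numbers pair the libraries was not settled. Of 18 same-numbered pairs, 9 had a correlation of deviations over 0.1, and values ran from -0.57 (C 2 and US 2) to 0.81 (C 2 and US+D 2). Pairs with different numbers were not compared. With the replicate block the count of calls stayed at 0 for all 7 comparisons, and 2 values turned, US+D against US of Solyc06g049050.3.1 to -0.22 and the interaction of Solyc06g076220.3.1 to -0.10. Of 920 alternative values, 836 kept direction and side of the threshold, 27 passed the threshold anew and 57 turned sign. Over all tested genes, edgeR called 1 for D against C, 1 for US+D against C, 27 for US+D against D and 0 in the other 4 comparisons, against 421, 149 and 741 in DESeq2 and 224, 35 and 1983 in voom. For US against C, US+D against US, D against US and the interaction DESeq2 called 80, 11, 683 and 104, and voom called 1, 0, 136 and 1. For Solyc02g088100.3.1, US against C was -0.01 without a filter and -0.02 with only the groups compared. In voom it had 0.34 for D against C, -0.19 for US+D against D, -0.23 for US+D against US and -0.57 for the interaction, where Solyc06g076220.3.1 had -0.58. Voom gave -0.66 for US+D against US of Solyc06g049050.3.1. Without the 3 deepest libraries, Solyc02g088100.3.1 had 1.0 for D against C and -0.13 for the interaction, Solyc06g076220.3.1 had 0.23 for US against C, 0.87 for US+D against C and -0.38 for the interaction, and expansin 1 had -0.16 for US+D against US. Leaving out each library in turn, with edgeR or DESeq2, Solyc02g088100.3.1 ranged from -1.23 to 1.60 for US against C, -1.0 to 1.02 for D against C, -0.70 to 2.07 for US+D against C, -0.12 to 1.47 for US+D against D, -0.70 to 1.70 for US+D against US, -1.0 to 0.65 for D against US and -0.56 to 2.28 for the interaction. Solyc06g076220.3.1 ranged from -1.10 to 0.18 for US against C, 0.04 to 0.99 for D against C, -0.45 to 0.61 for US+D against C and -0.58 to 0.72 for the interaction. For US+D against US, Solyc06g049050.3.1 ranged from -1.05 to 1.11 and expansin 1 from -0.16 to 0.37. The cause was not tested. The lowest library of expansin 1 held 38 reads, and those of the other 3 genes held 223 to 648.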
